A study of Mus musculus with 16 samples.

Results

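The genes described here are 9 complement genes of the mouse, C1qa, C1qb, C1qc, C2, C4b, C3, Cfb, C3ar1 and C5ar1, in dorsal root ganglia (DRGs) after nerve injury and antidepressant treatment. They were chosen by name, with earlier results of these data known. Each was found by its Ensembl identifier among the 52636 genes of the count files. All 9 passed the filter on low counts and belonged to the 21371 genes tested. The L3-6 DRGs of 16 male C57BL/6J mice were sequenced as bulk RNA, with 1 mouse per library and 4 mice in each of 4 groups. Spared nerve injury (SNI), in which some branches of the sciatic nerve are tied and cut while another is left intact, was compared with sham surgery. The tricyclic antidepressant desipramine (DMI), which blocks noradrenaline reuptake, was compared with saline at a dose of 15 mg/kg in 2 intraperitoneal injections per day for 3 weeks. The groups were named SNI-DMI, SNI-Saline, Sham-DMI and Sham-Saline. All mice were unmodified and 3 to 4 months old, and all were injected. The series' design text puts the first injection 4 weeks after surgery, whereas the study's methods speak of months. Ganglia of several levels were joined for each mouse, so injured and uninjured neurons were measured together, and the side from which ganglia were taken is not given in the sources used here, where surgery was on the left.

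Complement is a cascade of plasma and tissue proteins that tags cells and debris for removal. In the classical pathway C1q, built from the products of C1qa, C1qb and C1qc, binds a target and activates the proteases that cleave C4 and C2, and the fragments form an enzyme that cleaves C3. Factor B, the product of Cfb, forms the C3-cleaving enzyme of the alternative pathway. C3 and C5 fragments act on leukocytes through the receptors encoded by C3ar1 and C5ar1. In nervous tissue C1q is made largely by macrophages and microglia, whereas C3 and C4 come from several cell types. Macrophages lie around the neuronal cell bodies of the DRG and become more numerous after peripheral nerve injury.

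The 16 libraries held 41194238 to 73920332 reads on genes, which made up 79.6 to 81.2% of all read pairs. The labels name both spinal cord (as tissue) and DRG (as cell type). Markers of sensory neurons were abundant, with means of 2210 CPM (the usual per-library scaling of counts, here to the TMM-adjusted total) for Tubb3, 1680 for Prph and 1160 for Scn10a, whereas 6 of the 9 markers of spinal cord glia and motor neurons (Mog, Opalin, Olig1, Olig2, Mnx1 and Chat) had means of 0.0153 to 0.394 CPM. Of these, Mnx1 was at 0 in 9 libraries, Olig2 in 5 and Opalin in 2. The other 3 of that list, Aqp4 (mean 10.6 CPM), Slc5a7 (3.05) and Tmem119 (2.48), were found in every library. The summed level of 7 genes of injured sensory neurons, among them Atf3 and Sprr1a, ran from 203 to 368 CPM in the 8 SNI libraries and from 43.9 to 109 CPM in the 8 sham libraries, and so followed the surgery label in each library. Within the sham libraries this sum was 62.9 to 109 CPM with DMI and 43.9 to 53.8 CPM with saline. The numbers in the library names run from 17 to 24 for DMI and from 33 to 40 for saline. Within each range sham and SNI also hold separate runs of 4 numbers, SNI the lower under saline and the higher under DMI, so any effect of library order cannot be told apart from that of DMI or of injury in the comparisons of groups.

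C1q chains were the most abundant of the 9 transcripts once length was taken into account. Per kilobase of exon, mean levels over the 16 libraries were 26.2 ± 10 CPM for C1qa (SD, n = 16), 21.5 ± 8.2 for C1qb, 11.7 ± 4.07 for C1qc and 10.9 ± 2.50 for C4b. C2 followed at 1.82 ± 0.289 CPM per kilobase and C3 at 1.73 ± 1.07, with C2 and Cfb set per kilobase of exon that no other gene shares on the same strand. The lowest were C3ar1 at 0.716 ± 0.224, C5ar1 at 0.419 ± 0.101 and Cfb at 0.343 ± 0.159 CPM per kilobase. Between most neighbours the higher gene per kilobase lay above the lower in all 16 libraries. The exceptions were C1qc and C4b (10 of 16), C2 and C3 (9 of 16) and C5ar1 and Cfb (11 of 16), which did not separate. The annotated length is the same in every library, so this agreement does not test an order that length sets. C1qb and C1qc had means of 23.35 and 22.56 CPM before division by 1088 and 1931 exon bases. C3 varied most of the 9, by 6.87-fold between its lowest and highest library, and C2 least, by 1.74-fold.

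**Figure D1:**
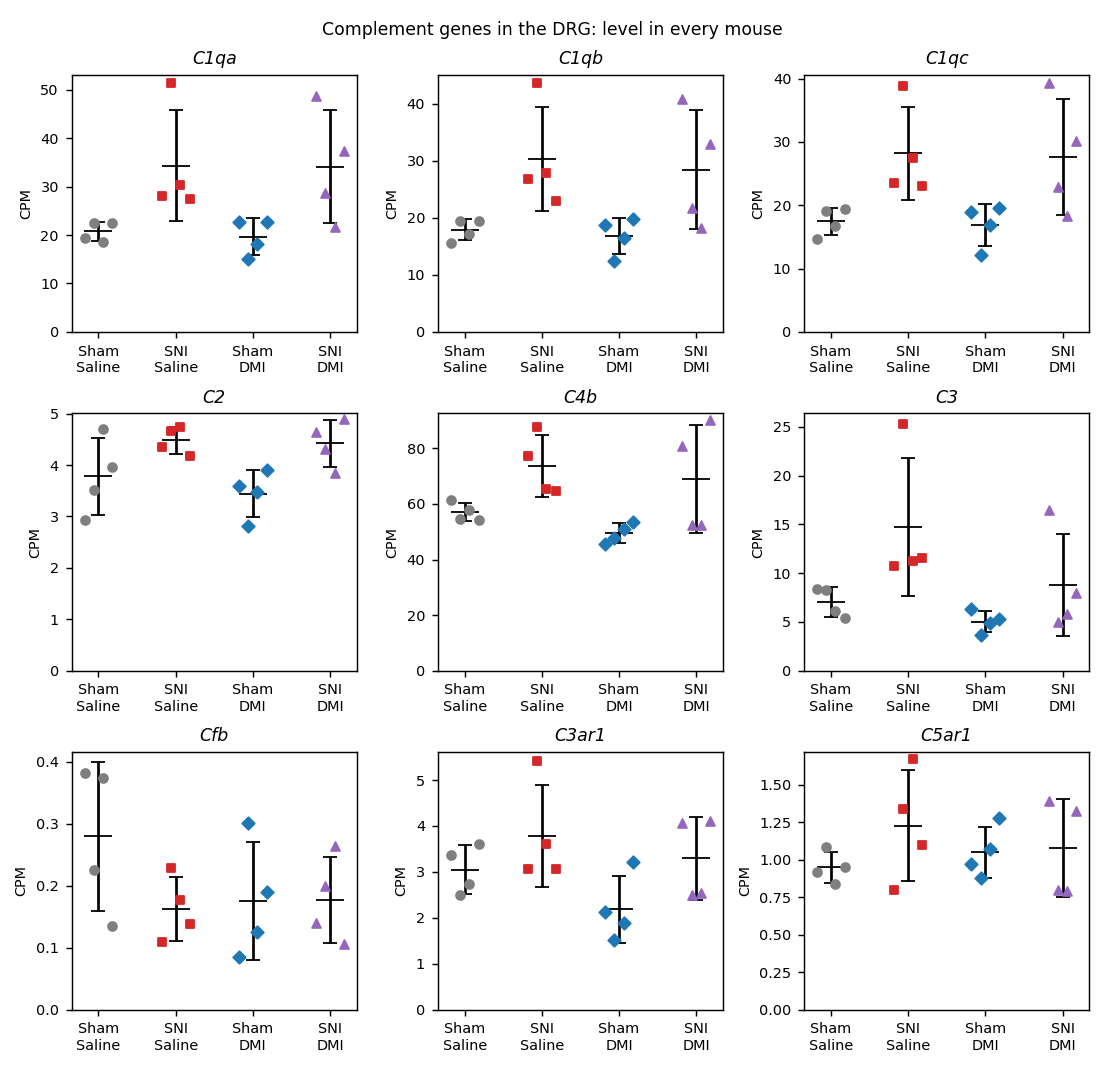
Level of each complement gene in CPM (y axis, starting at 0) in the 4 groups (x axis), with 1 point per mouse and the mean ± SD in black. C1qa, C1qb, C1qc, C3 and C4b were higher in all 4 SNI-Saline mice than in all 4 Sham-Saline mice, and SNI-Saline replicate 2 had 25.3 CPM of C3 against 10.7 to 11.6 in the other 3.

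Nerve injury raised the C1q genes and C3, and no change of the C1q genes with DMI was detectable. Each comparison was tested with edgeR's quasi-likelihood test over all 21371 genes, and a gene was called at a Benjamini-Hochberg adjusted p under 0.1. In SNI-Saline versus Sham-Saline 4 of the 9 genes rose (C1qa, C1qb, C1qc and C3) and none fell, where 5.85% of all genes tested were called higher and 12.0% were called in either direction. All 4 libraries of SNI-Saline lay above all 4 of Sham-Saline for these genes and for C4b, as for 7.67% of all genes. In SNI-DMI versus Sham-DMI none of the 9 was called, where 0.402% of all genes were. The 9 log2 fold changes of that comparison nevertheless had a median of 0.59, against 0.37 under saline and 0.001 over all genes in the same comparison. With injury averaged over both treatments, 6 of the 9 rose (C1qa, C1qb, C1qc, C2, C3 and C4b), where 7.71% of all genes were called higher and 16.1% either way.

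None of the 9 genes was called in SNI-DMI versus SNI-Saline, where 2.93% of all genes were, or in Sham-DMI versus Sham-Saline, where 23.4% were. The share of 2.93% was not stable, as calls over all genes fell from 626 to 0 without certain single libraries. At an unadjusted p under 0.05, C3 alone passed in the first of these comparisons (18.5% of all genes) and none in the second (30.6%), and DESeq2 also called none in either. The study's looser rule for a changed gene asks for an unadjusted p under 0.05 and a log2 fold change of 0.32 or more in size. With it C3 counted as lowered by DMI under SNI, as did 3.80% of all genes (5.73% either way). Under DMI 7 of the 9 counted as raised by injury, as did 4.07% of all genes (5.41% either way). With DMI averaged over both surgeries, C3 was the only one of the 9 called, and it fell, where 15.8% of all genes were called lower and 30.6% either way. Median log2 fold changes of the 9 were -0.09 under SNI, -0.14 under sham and -0.09 on average, against -0.005, -0.021 and -0.013 over all genes. The difference between the DMI effects under SNI and under sham was not called for any of the 9 or for any other gene by edgeR, and 1692 genes (7.92%) but none of the 9 had an unadjusted p under 0.05. These comparisons share groups of mice and are not independent of each other.

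**Figure D2:**
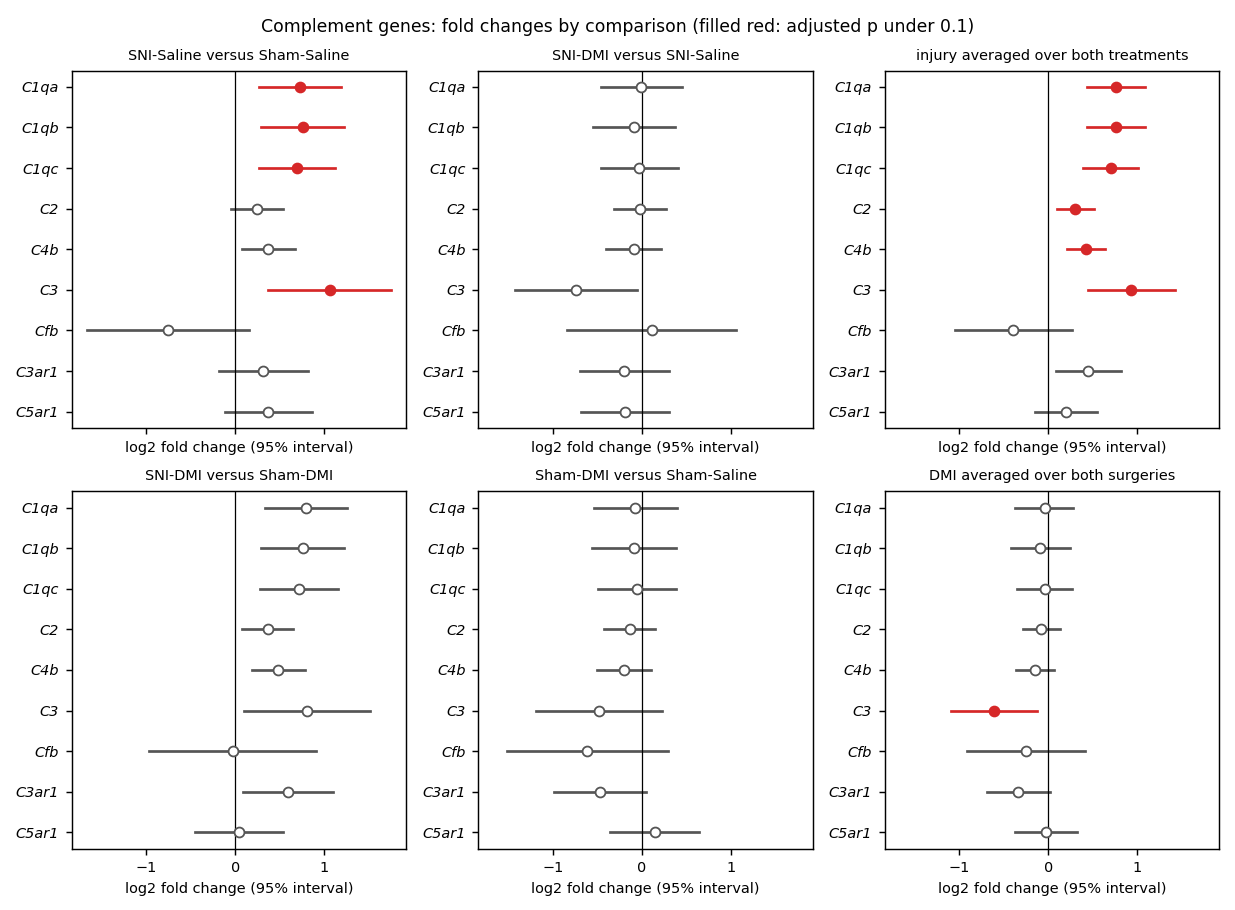
Log2 fold change (x axis) with its 95% interval for each complement gene (y axis) in 4 comparisons of groups and in the averaged effects of injury and DMI. Red filled points passed an adjusted p of 0.1 (4 genes for injury under saline, 6 for injury averaged, C3 alone for DMI averaged), and the intervals of C1qa, C1qb and C1qc for DMI lie on both sides of 0.

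The 3 C1q genes lie side by side on the minus strand of chromosome 4 (GRCm38), with C1qb (ENSMUSG00000036905) at chr4:136880129-136886187, C1qc (ENSMUSG00000036896) at chr4:136889804-136893065 and C1qa (ENSMUSG00000036887) at chr4:136895917-136898803. C1qa had 19.5, 22.4, 18.6 and 22.5 CPM in the 4 Sham-Saline libraries and 28.1, 51.3, 30.3 and 27.4 CPM in SNI-Saline. It had 22.8, 15.1, 18.1 and 22.7 CPM in Sham-DMI and 48.8, 28.6, 21.6 and 37.4 CPM in SNI-DMI. The saline groups did not overlap, whereas 1 SNI-DMI library, replicate 3, lay within the range of Sham-DMI. The highest libraries were SNI-Saline replicate 2 and SNI-DMI replicate 1. C1qb followed the same order, with means under saline of 17.9 ± 1.86 CPM after sham surgery (SD, n = 4) and 30.3 ± 9.10 after SNI, and under DMI of 16.9 ± 3.19 and 28.4 ± 10.4. C1qc had 17.5 ± 2.16 and 28.2 ± 7.36 CPM under saline and 16.9 ± 3.30 and 27.6 ± 9.19 under DMI. For both genes 3 of the 4 SNI-DMI libraries lay above all of Sham-DMI.

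Under saline, injury raised C1qa 1.65-fold (log2 fold change 0.72, SE 0.219, edgeR adjusted p = 0.0590), C1qb 1.69-fold (0.76, SE 0.221, adjusted p = 0.0521) and C1qc 1.61-fold (0.69, SE 0.206, adjusted p = 0.0560). Under DMI the values were 0.79, 0.75 and 0.71 on the log2 scale, not called, with edgeR adjusted p of 0.170, 0.196 and 0.190. Averaged over treatments, the 3 genes rose by 0.76 (adjusted p = 0.0100), 0.76 (0.0105) and 0.70 (0.0106) on the log2 scale. The calls under saline depended on which libraries were kept. All 3 were lost without SNI-Saline replicate 2 (log2 fold changes 0.47, 0.54 and 0.51), where the values were lowest. They were also lost without Sham-Saline replicate 1 (0.70, 0.71 and 0.63) or 3 (0.69, 0.75 and 0.68), with values closer to those of the full fit. That of C1qa was also lost without Sham-Saline replicate 4 (0.77). Calls over all genes in this comparison fell as well, from 2571 to 771, 1257, 682 and 1218 without these libraries in the same order. The 3 C1q calls were also lost by a small margin when trends of fold change with GC content and length were removed (0.62, 0.65 and 0.60, edgeR adjusted p from 0.104 to 0.107), where 1039 of all genes were called. Without SNI-DMI replicate 3 all 3 genes were called for injury under DMI, at 0.97, 0.93 and 0.88, as they were with no filter on low counts (0.80, 0.76 and 0.72, edgeR adjusted p from 0.0203 to 0.0335), and C1qa was also called there without SNI-Saline replicate 2 (0.80) or Sham-DMI replicate 1 (0.85). Calls over all genes for injury under DMI rose there too, from 86 to 234, 310, 110 and 850 in the same order. The averaged calls held whichever of the 16 libraries was left out.

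DMI changed C1qa by -0.01 on the log2 scale under SNI (95% interval -0.46 to 0.45) and by -0.08 under sham (-0.54 to 0.39). For C1qb the values were -0.09 (-0.55 to 0.37) and -0.09 (-0.56 to 0.38), and for C1qc -0.03 (-0.46 to 0.40) and -0.05 (-0.49 to 0.38). A fall of C1q by as much as the estimated rise with injury under saline (0.72, 0.76 and 0.69) lay outside these intervals. That rise is itself uncertain, with 95% intervals that begin at 0.26, 0.29 and 0.26, and falls of that size lay inside. The rise and the DMI values under SNI also share the SNI-Saline mice. Smaller changes in either direction could not be told from 0 with 4 mice per group. Without SNI-Saline replicate 2 the DMI values under SNI turned to 0.27, 0.15 and 0.18.

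The 3 chains kept a nearly fixed ratio. Per kilobase, C1qa made up 42.1 to 46.4% of the summed C1q level in the 16 libraries, C1qb 33.6 to 38.5% and C1qc 18.4 to 21.2%, while the sum itself ran from 39.8 to 134 CPM. The log2 levels of each pair correlated with r = 0.99 over the 16 libraries and 0.97 to 0.98 after the group means were removed. These correlations are a description, and the points share library and depth.

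Since the C1q genes moved together, the sequence before 2 of their starts is shown beside that of C3, as RefSeq gives it for GRCm38.p6. The table of promoters used here held 5 of the 9 genes (C1qb, C1qc, C3, C3ar1 and C5ar1). Capitals mark the letters GAGGAA or their reverse complement TTCCTC, the core bound by PU.1, a transcription factor of macrophages and other myeloid cells. All 3 sequences are on the minus strand and written 5′ to 3′, and each ends before the gene as GENCODE annotates it. They lie at chr4:136886201-136886450 for C1qb, chr4:136893066-136893164 for C1qc and chr17:57228137-57228386 for C3.
C1qb: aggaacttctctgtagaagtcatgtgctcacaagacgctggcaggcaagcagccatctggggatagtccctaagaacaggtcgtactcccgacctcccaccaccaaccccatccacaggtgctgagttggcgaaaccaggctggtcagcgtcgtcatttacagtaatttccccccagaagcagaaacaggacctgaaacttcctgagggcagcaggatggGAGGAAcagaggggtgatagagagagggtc
C1qc: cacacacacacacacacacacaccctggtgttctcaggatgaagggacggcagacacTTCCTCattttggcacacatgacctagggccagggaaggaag
C3: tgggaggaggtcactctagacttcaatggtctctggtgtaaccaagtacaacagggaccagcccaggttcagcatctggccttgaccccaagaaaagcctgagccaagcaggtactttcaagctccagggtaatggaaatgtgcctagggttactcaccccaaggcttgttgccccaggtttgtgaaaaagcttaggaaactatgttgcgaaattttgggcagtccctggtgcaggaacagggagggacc
Within 250 bases before the RefSeq start, on either strand, C1qb and C1qc each held these letters 1 time, and they began 30 bases before the start of C1qb and 193 bases before that of C1qc. The windows of C3, C3ar1 and C5ar1 did not hold them. Of 32851 promoter windows of the same length, 23.3% did. The gamma-activated site TTCNNNGAA, at which STAT proteins bind after interferon gamma, was in none of the 5 windows and in 7.0% of all. Of the 250 bases searched, 202 for C5ar1, 151 for C1qc and 4 for C3ar1 lay inside the gene as GENCODE annotates it. The search of C5ar1 thus covered few bases before its GENCODE start. A match is a description of letters and not a measured binding site.

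The genes that act after C1q in the classical pathway, C4b and C2, moved by less. C4b (ENSMUSG00000073418, chr17:34728380-34743882) encodes the mouse C4 protein. It had 61.2, 54.6, 57.7 and 54.3 CPM in Sham-Saline and 77.2, 87.6, 65.3 and 64.5 CPM in SNI-Saline. It had 45.8, 47.6, 51.0 and 53.6 CPM in Sham-DMI and 80.8, 52.3, 52.4 and 90.3 CPM in SNI-DMI. SNI-DMI held 2 high libraries, replicates 1 and 4, and 2 that lay within the range of Sham-DMI, and all 4 Sham-DMI libraries lay below all of Sham-Saline, as for 8.51% of all genes.

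Injury averaged over treatments raised C4b by 0.42 on the log2 scale (SE 0.102, edgeR adjusted p = 0.0193), a 1.34-fold change. The separate values were 0.37 under saline (adjusted p = 0.129) and 0.48 under DMI (adjusted p = 0.205), neither of them called. Both were called with DESeq2 (adjusted p = 0.0555 under saline and 0.0604 under DMI) and by edgeR with no filter on low counts (0.0667 and 0.0466), and the first also in a fit of its own 8 libraries (edgeR adjusted p = 0.0222). Each was also called when certain single libraries were left out, the first without SNI-DMI replicate 2, 3 or 4 (0.37 to 0.38) and the second without SNI-DMI replicate 2 or 3 (0.59 and 0.60). DMI changed C4b by -0.20 under sham (95% interval -0.51 to 0.10), by -0.09 under SNI (-0.40 to 0.21) and by -0.15 on average (adjusted p = 0.318). The sham value was called in a fit of its own 8 libraries (-0.19, edgeR adjusted p = 0.0905). Without SNI-DMI replicate 4 the averaged value was -0.22 and was called. Reads of C4b can be confused with those of C4a, its near copy, which held 36 to 83 counts per library against 2042 to 5992 for C4b.

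C2 (ENSMUSG00000024371, chr17:34862604-34898265) encodes the protease that joins C4b protein in the enzyme that cleaves C3. It had 2.94, 3.51, 4.71 and 3.97 CPM in Sham-Saline and 4.35, 4.66, 4.74 and 4.17 CPM in SNI-Saline. It had 3.59, 2.81, 3.47 and 3.91 CPM in Sham-DMI and 4.64, 4.30, 3.84 and 4.90 CPM in SNI-DMI. The groups overlapped in every comparison. Injury averaged over treatments raised C2 by 0.30 on the log2 scale (SE 0.0975, edgeR adjusted p = 0.0586), and the call was lost without Sham-Saline replicate 1 (0.26), SNI-Saline replicate 2 (0.30), Sham-DMI replicate 2 (0.27) or SNI-DMI replicate 4 (0.27), and with trends of GC content and length removed (0.24). The values under saline (0.24), under DMI (0.36) and for DMI under SNI (-0.02), under sham (-0.14) and on average (-0.08) did not pass.

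C3, the component on which all complement pathways meet, changed most of the 9 with injury. It was the only one of the 9 called for DMI, and only averaged over both surgeries, where 15.8% of all genes were called lower. The gene (ENSMUSG00000024164) lies at chr17:57203970-57228136 on the minus strand. It had 8.35, 8.30, 6.15 and 5.42 CPM in Sham-Saline and 10.7, 25.3, 11.3 and 11.6 CPM in SNI-Saline. All 4 SNI-Saline libraries lay above Sham-Saline, and replicate 2 stood far above the other 3. It had 6.29, 3.68, 4.92 and 5.28 CPM in Sham-DMI and 16.4, 4.99, 5.79 and 8.0 CPM in SNI-DMI. Of the SNI-DMI libraries, 3 lay below all of SNI-Saline and replicate 1 lay above 3 of them, while 2 lay within the range of Sham-DMI.

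Injury raised C3 2.09-fold under saline (log2 fold change 1.06, SE 0.327, edgeR adjusted p = 0.0633) and by 0.93 on the log2 scale averaged over treatments (SE 0.234, adjusted p = 0.0231). Under DMI the value was 0.80 (adjusted p = 0.347). The call under saline was lost without SNI-Saline replicate 2 (0.68), Sham-Saline replicate 1 (1.16), Sham-Saline replicate 3 (1.02) or Sham-Saline replicate 4 (0.96). Calls over all genes fell without these libraries too, from 2571 to 771, 1257, 682 and 1218 in the same order. The averaged call of C3 held without any single library. DMI averaged over both surgeries lowered C3 to 0.653 of its saline level (log2 fold change -0.62, SE 0.233, adjusted p = 0.0655). Its separate values were -0.74 under SNI (95% interval -1.43 to -0.06, edgeR adjusted p = 0.230) and -0.49 under sham (-1.19 to 0.22, adjusted p = 0.349), and the difference between them was -0.26 (-1.23 to 0.72).

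The DMI call of C3 was lost without any of 8 libraries. These were Sham-Saline replicates 1 (-0.56) and 2 (-0.57), SNI-Saline replicate 2 (-0.40), Sham-DMI replicates 2 (-0.53) and 3 (-0.60) and SNI-DMI replicates 2 (-0.52), 3 (-0.52) and 4 (-0.58). The value under SNI ran from -0.33 without SNI-Saline replicate 2 to -1.22 without SNI-DMI replicate 1. It stayed below 0 throughout.

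Cfb (ENSMUSG00000090231, chr17:34856374-34862518), which encodes factor B, was close to the detection limit with 5 to 24 counts per library. It had 0.383, 0.226, 0.374 and 0.136 CPM in Sham-Saline and 0.109, 0.228, 0.177 and 0.138 CPM in SNI-Saline. It had 0.0854, 0.302, 0.125 and 0.189 CPM in Sham-DMI and 0.139, 0.199, 0.264 and 0.106 CPM in SNI-DMI. No group stood apart. The injury value under saline was -0.76 on the log2 scale (95% interval -1.67 to 0.15), the only one of the 9 below 0 in that comparison, and it was not called (edgeR adjusted p = 0.309). Injury under DMI gave -0.03, injury on average -0.40, and DMI gave 0.11 under SNI, -0.61 under sham and -0.25 on average, none of them called.

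Counts of Cfb and C2 may be partial. The same-strand gene model Gm20547 runs through both and shares 2246 exon bases with Cfb (79.5% of its exon length) and 1656 with C2 (42.8%), and it had 0 counts in all 16 libraries. Reads that fall on shared exons of such genes are set aside as ambiguous by the usual counting mode of HTSeq, but the mode used here is not given in the sources used here. The levels above assume it and rest on the unshared 579 bases of Cfb and 2216 of C2. With the full exon lengths of 2825 and 3872 bases, a choice made after the values were seen, Cfb had 0.0703 ± 0.0327 CPM per kilobase (SD, n = 16) and C2 1.04 ± 0.166. C2 then lay above C3 in 3 of 16 libraries, and Cfb lay below C5ar1 in all 16. C2 also shares 161 bases with Zbtb12 on the opposite strand.

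The receptor genes were lowly expressed and were not called in any of the 7 comparisons, although C3ar1 lay at the threshold for injury on average. C3ar1 (ENSMUSG00000040552, chr6:122847138-122856161), the receptor for the C3a fragment, had 3.37, 2.50, 2.73 and 3.61 CPM in Sham-Saline and 3.06, 5.41, 3.61 and 3.06 CPM in SNI-Saline. It had 2.13, 1.51, 1.90 and 3.22 CPM in Sham-DMI and 4.06, 2.50, 2.54 and 4.10 CPM in SNI-DMI. The groups overlapped, with 3 of the 4 Sham-DMI libraries below all of Sham-Saline. Injury averaged over treatments gave 0.45 on the log2 scale (SE 0.170, edgeR adjusted p = 0.10), and it was called under 5 alternatives that kept all libraries, with DESeq2 (adjusted p = 0.0497), no filter on low counts (0.0722), at least 10 counts in every library (0.0905), a replicate block (0.0908) and upper-quartile scaling (0.0981). The separate values were 0.31 under saline and 0.59 under DMI, with adjusted p of 0.468 and 0.345.

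For DMI, C3ar1 gave -0.48 under sham (95% interval -0.99 to 0.04, edgeR adjusted p = 0.196), -0.20 under SNI (-0.70 to 0.30) and -0.34 on average (adjusted p = 0.166). Without Sham-DMI replicate 4 the sham value was -0.71 and the averaged value -0.45, and both were called. The averaged injury value was also called without any of 6 libraries, Sham-Saline replicate 4, SNI-Saline replicate 1 or 4, Sham-DMI replicate 4 or SNI-DMI replicate 2 or 3, at 0.50 to 0.57.

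C5ar1 (ENSMUSG00000049130, chr7:16246743-16259540), the main receptor for C5a, had 43 to 104 counts per library. It had 0.922, 1.09, 0.841 and 0.951 CPM in Sham-Saline and 0.797, 1.34, 1.67 and 1.10 CPM in SNI-Saline. It had 0.974, 0.878, 1.07 and 1.28 CPM in Sham-DMI and 1.39, 0.796, 0.792 and 1.33 CPM in SNI-DMI. Each SNI group held libraries both above and below all of its sham group. Its log2 fold changes were 0.37 for injury under saline, 0.04 under DMI and 0.20 on average, and for DMI -0.19 under SNI, 0.14 under sham and -0.02 on average, with edgeR adjusted p from 0.369 to 0.965.

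Macrophage markers moved with the C1q genes. The 16 macrophage markers summed under saline to 205 to 251 CPM after sham surgery and 248 to 449 after SNI, and under DMI to 132 to 198 and 163 to 392, and none was at 0 in any library. Of the 16, 7 rose with injury under saline (median log2 fold change of all 16, 0.44) and 11 rose and 1 fell with injury on average (0.57), while none was called for DMI under SNI (-0.13), 1 fell under sham (-0.25) and 3 fell on average (-0.16). Over all genes 5.85% rose with injury under saline and 7.71% with injury on average, and 11.9% fell with DMI under sham and 15.8% with DMI on average, so the falls of macrophage markers were near or below the share of all genes. SNI-Saline replicate 2 and SNI-DMI replicate 1, with the highest C1q sums of 134 and 129 CPM, also had the highest marker sums, 449 and 392 CPM. In bulk RNA more macrophages and more of these RNAs per macrophage cannot be told apart, and the part of cell number in the complement results was not tested.

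Divided by the marker sum, C1q under saline was 0.235 to 0.259 after sham surgery and 0.296 to 0.336 after SNI, and under DMI 0.296 to 0.332 and 0.323 to 0.356. All 12 libraries with injury, DMI or both lay above the 4 of Sham-Saline. The marker Cd74, an invariant chain of class II antigen presentation, made up 40.5 to 53.2% of the sum. Without it, a choice made after the values were seen, the ratios in the same order were 0.461 to 0.512, 0.566 to 0.620, 0.506 to 0.622 and 0.604 to 0.703, so that both SNI groups still lay above Sham-Saline and Sham-DMI overlapped it. C3 divided by the full marker sum was 0.0216 to 0.0406 after sham surgery and 0.0413 to 0.0564 after SNI under saline, and 0.0278 to 0.0317 and 0.0220 to 0.0420 under DMI. SNI-Saline lay above Sham-Saline by a narrow margin, which was lost without Cd74 (0.0746 to 0.117 against 0.0448 to 0.0772).

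**Figure D3:**
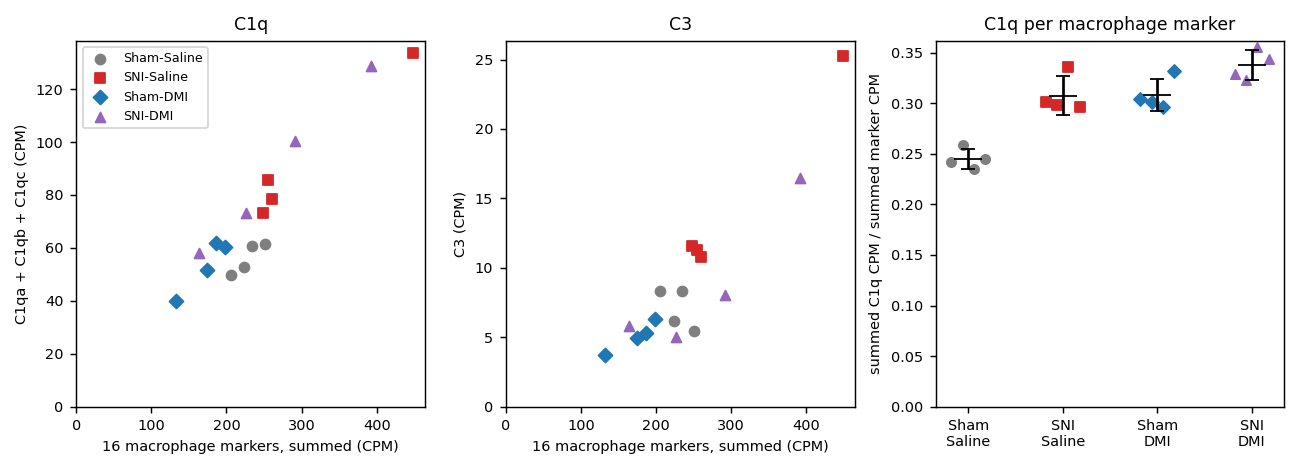
Summed C1q level (left, CPM) and C3 level (middle, CPM) against the summed level of 16 macrophage markers (CPM) in each of the 16 libraries, and the C1q sum divided by the marker sum by group with mean ± SD (right). The 2 libraries with the highest marker sums, 449 and 392 CPM, also had the most C1q and C3, and the 4 Sham-Saline ratios (0.235 to 0.259) lie below the other 12.

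Other cell types and responses moved as well. Of 10 neutrophil markers tested, 8 fell with DMI on average, with a median log2 fold change of -1.46 over the 10, and 7 fell under sham and 2 under SNI, where 15.8%, 11.9% and 1.61% of all genes fell. The summed level of all 11 neutrophil markers listed was 12.5 to 56.6 CPM in the 8 saline libraries and 4.87 to 19.7 CPM in the 8 DMI libraries. None of the 10 tested was called for injury. Of 24 genes of the interferon response, 9 rose with injury under saline (median 0.57) and 22 rose with injury on average (median 0.62), where 5.85% and 7.71% of all genes rose, while 6 fell with DMI on average (median -0.18), where 15.8% of all genes fell. Their part in the complement values was not tested.

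The genes most like the C1q mean over the 16 libraries, by the Pearson correlation of log2 CPM and without the 9 genes themselves, were Fcer1g and Lyz2 (r = 0.97 each) and Fcgr3, Ctss and Tyrobp (0.95 each). Fcer1g, Fcgr3 and Tyrobp are among the macrophage markers above and encode subunits of immunoreceptor complexes, and Lyz2 encodes a lysozyme of myeloid cells. Nearest to C3 were Ccl6 (0.95), Lilr4b (0.93) and Vav1, Fyb and Arhgap30 (0.92 each). Nearest to C4b were AW112010 (0.94), Xaf1 and Xdh (0.93 each) and Isg15 and Ctss (0.91 each), of which Isg15 is an interferon-induced ubiquitin-like protein. With group means removed the 15 values ran from 0.81 to 0.95. Among the 9 genes, C3 correlated with the C1q genes at 0.82 to 0.85 and C4b at 0.81 to 0.87, whereas Cfb gave negative values with all others. All of these are descriptions over 16 libraries that share the surgery and drug groups.

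The rest of the pathway gave a mixed picture. Of 47 other complement genes listed, 37 were tested and 16 were called in at least 1 comparison. For injury under saline 3 rose and 2 fell (5.85% and 6.18% of all genes), and the 37 log2 fold changes had a median of 0.00. For injury on average 5 rose and 3 fell (7.71% and 8.43% of all genes), with a median of 0.03. For DMI on average 2 rose and 11 fell, with a median of -0.18, where 14.8% and 15.8% of all genes did. Under sham DMI raised 3 and lowered 8, where 11.6% and 11.9% of all genes did. Under SNI it lowered 1, Csmd3 (-0.73, edgeR adjusted p = 0.0993), where it lowered 1.61% of all genes.

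Among the initiators, 11 of 15 were tested. Mbl2, a mannose-binding lectin, rose with injury under saline from 0.366 ± 0.101 to 0.906 ± 0.194 CPM (SD, n = 4; log2 fold change 1.30, edgeR adjusted p = 0.0183) and with DMI under sham (0.86, adjusted p = 0.0498). The C1 proteases, which C1q activates, fell with DMI on average, C1s1 by 0.47 on the log2 scale (adjusted p = 0.00291) and C1ra by 0.37 (adjusted p = 0.0470), and C1s1 rose by 0.29 with injury on average (adjusted p = 0.0713). Of the 2 alternative pathway genes, Cfd and Cfp, and of 3 terminal components tested among 7, none was called in any of the 7 comparisons.

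Of the receptors, 6 of 7 were tested. Itgax and Itgb2, which encode both subunits of complement receptor 4, were called higher with injury and lower with DMI in the averaged effects. None of the 6 receptors was called for injury under saline, for injury under DMI or for DMI under SNI. Calls of the other complement genes were not rechecked with single libraries left out. Itgax rose by 1.26 with injury on average (adjusted p = 0.0329) and fell by 0.90 with DMI on average (edgeR adjusted p = 0.0689). Itgb2 rose by 0.71 (adjusted p = 0.0372) and fell by 0.48 (adjusted p = 0.0939) in the same comparisons. Itgam fell by 0.47 with DMI on average (edgeR adjusted p = 0.0423), and Cd93, a receptor of phagocytes and endothelium once assigned to C1q, by 0.55 with DMI under sham (adjusted p = 0.0475).

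Regulators were the most abundant of the other genes, and 15 of 16 were tested. Clu, a secreted chaperone that inhibits the terminal complex, had a mean of 497 CPM and rose with injury under saline (0.32, edgeR adjusted p = 0.0432), with DMI under sham (0.36, adjusted p = 0.0102) and with DMI on average (0.21, adjusted p = 0.0224). Cd55, which hastens the decay of C3-cleaving enzymes, had a mean of 355 CPM and fell by 0.21 with injury and by 0.19 with DMI on average (adjusted p = 0.0271 and 0.0192). Cr1l and Cd46, cofactors for C3b breakdown, fell by 0.22 and 0.28 with DMI on average, and Cr1l also fell by 0.16 with injury on average. Csmd1 and Csmd3, of the same family of complement control domains, fell by 0.24 and 0.69 with DMI on average, and Csmd1 by 0.21 with injury on average. Cd59a, an inhibitor of the membrane attack complex, rose by 0.11 on the log2 scale with injury on average, and Susd4 rose by 0.18 with DMI on average. The adjusted p of edgeR for these values of Cr1l, Cd46, Csmd1, Csmd3, Cd59a and Susd4 ran from 0.00160 to 0.0533. Serping1, the C1 inhibitor, was not called in any of the 7 comparisons.

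**Figure D4:**
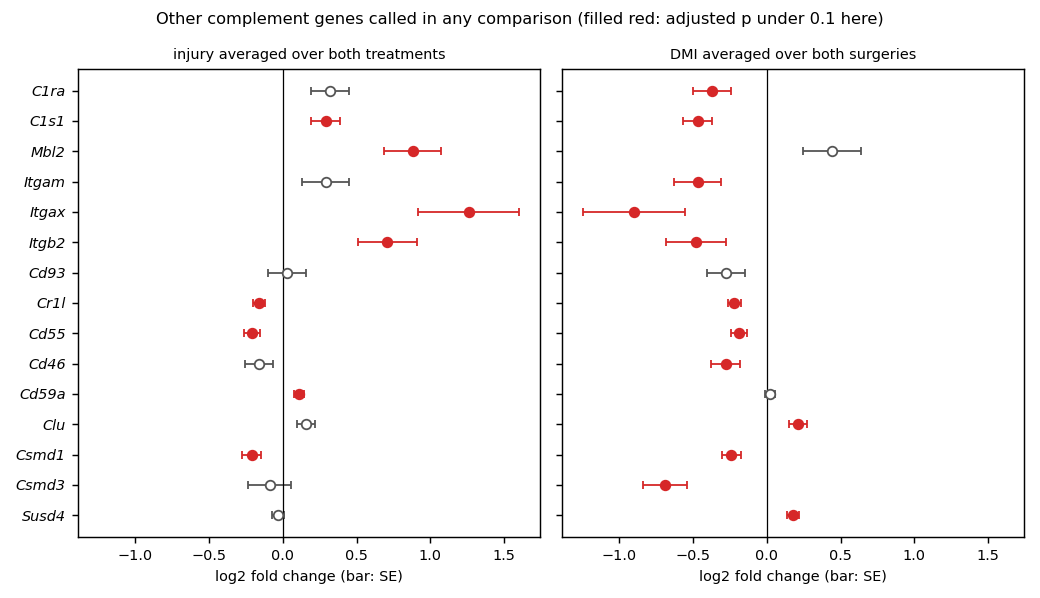
Log2 fold change ± SE (x axis) of 15 of the 16 other complement genes called in any comparison (y axis, ordered by role), for injury averaged over treatments (left) and DMI averaged over surgeries (right). Filled red points passed an adjusted p of 0.1 in that panel, 8 for injury (5 higher, 3 lower) and 12 for DMI (2 higher, 10 lower).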

How the data were processed

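The authors isolated RNA with TRIzol and chloroform, made libraries with a stranded mRNA kit and sequenced paired ends. The submitters' processing notes name HISAT2, HTSeq, DESeq2 and build mm10, with no versions. The deposited values are whole-number counts per Ensembl gene without normalization, and the annotation release and strand setting are not given in the sources used here. Reads without a gene, 7.1 to 9.44% with no feature and 3.05 to 3.41% ambiguous among them, were left out. Symbols, positions and exon lengths came from GENCODE M21 on GRCm38, in which 52489 of 52636 genes had an entry.

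Tests were run with edgeR 4.0.16 in R 4.3.3 (filterByExpr, TMM, glmQLFit with 1 coefficient per group over all 16 libraries) at a Benjamini-Hochberg adjusted p under 0.1, in 4 comparisons of groups, 2 averaged effects and their interaction. The alternatives were DESeq2 1.42.0, other scalings and filters, 8 libraries, a replicate block, GC and length curves (mgcv 1.9.3), nominal p under 0.05 with a log2 fold change past 0.32 in size, and leaving out each library. Correlations used log2 CPM with a prior count of 2. Figures were made with matplotlib. The analysis was tested on simulated counts. The members, gene lists and comparisons were chosen with earlier results of these data known. Of the other complement genes, 1 enters the counts but is not reported here by name. Every member was named, with other complement genes called in any comparison, the most abundant markers and the 5 genes most like C1q, C3 and C4b. Replicates of a group differed by more than sampling noise (chi-square per gene 10 to 42.5). The p-values measure the spread between these mice, 1 per library.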

Additional observations from a re-analysis of the deposited data

Results flagged for a closer look

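In 2 of the 36 pairs of complement gene and group examined, 1 sample stood far from the other 3, and chance alone gives such a sample in about 1 of 20 groups. Both are SNI-Saline replicate 2. It had 51.3 CPM of C1qa where the other SNI-Saline libraries had 27.4 to 30.3, a gap of 0.879 of the range of the group. It had 25.3 CPM of C3 where the others had 10.7 to 11.6, a gap of 0.943 of the range. The same library had the highest macrophage marker sum, 449 CPM, and the highest neutrophil marker sum, 56.6 CPM, of all 16.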

How the results depend on the processing

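The count of complement genes called moved with single choices in most comparisons, and the cause was not tested. For injury under saline it was 4, became 1 (C3) with GC and length trends removed and 1 (C3) without SNI-Saline replicate 2 and SNI-DMI replicate 1 together, an alternative chosen after seeing the data, and ran from 0 to 5 when 1 library was left out, while DESeq2, no filter on low counts and a fit of the 8 libraries each added C4b (adjusted p = 0.0555, 0.0667 and 0.0222, the last 2 by edgeR). For DMI under SNI it was 0, and 1 (C3) under the nominal rule. For DMI under sham it was 0, 1 (C4b) with 8 libraries, 1 (C3) in the added alternative and 0 to 1 with 1 library left out. For injury under DMI it was 0, 4 with no filter on low counts, 1 (C4b) with DESeq2, 7 under the nominal rule and 0 to 4 with 1 library left out. For DMI on average it was 1 and ran from 0 to 2. For injury on average it stayed between 5 and 7. The number called over all genes moved with the same choices. For injury under saline it was 2571, 3410 with DESeq2, 2094 with no filter, 1039 with GC and length trends removed and 493 in the added alternative. For injury under DMI it was 86 of 21371, 310 of 38220 with no filter and 505 with DESeq2. With 1 library left out it ran from 682 to 3286 and from 17 to 850 in these 2 comparisons. For DMI on average it then ran from 5207 to 7241, and for injury on average from 2079 to 4873.

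The labels of the samples do not say whether replicate numbers pair mice, and no pairing was assumed in the main tests. The 24 same-numbered pairs correlated at -0.081 to 0.184, 5 of them over 0.1. Differently numbered pairs correlated at -0.248 to 0.169, several of them also over 0.1, an overlapping range that does not settle the question. With the number as a replicate block, 4, 0, 0 and 0 genes were called in the comparisons of groups, 1 for DMI and 7 for injury on average and 0 for the interaction.

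Directions turned only for log2 fold changes that were not called. In the added alternative these were C1qa for DMI under SNI (0.0452), C5ar1 and Cfb for injury under DMI (-0.102 and 0.0657) and C1qc for the interaction (-0.00559), and with GC and length trends removed C5ar1 (-0.019) and C1qc (-0.000238) in the same comparisons. With 1 library left out in turn, the log2 fold changes that changed sign ran as follows. For DMI under SNI these were C1qa from -0.219 to 0.27, C1qb from -0.305 to 0.154, C1qc from -0.236 to 0.18, C2 from -0.0721 to 0.0587, C3ar1 from -0.323 to 0.0404, C4b from -0.253 to 0.0319 and Cfb from -0.123 to 0.331. For DMI under sham these were C1qa from -0.138 to 0.0511, C1qb from -0.158 to 0.052, C1qc from -0.115 to 0.0967 and C2 from -0.222 to 0.00375. For injury under DMI these were C5ar1 from -0.102 to 0.168 and Cfb from -0.274 to 0.396. For DMI on average these were C1qa from -0.139 to 0.105, C1qb from -0.188 to 0.0417, C1qc from -0.135 to 0.0729 and C5ar1 from -0.0862 to 0.0649. For the interaction these were C1qa from -0.16 to 0.329, C1qb from -0.235 to 0.225, C1qc from -0.202 to 0.214, C2 from -0.00887 to 0.217, C3 from -0.755 to 0.135 and C4b from -0.0686 to 0.218. Depth limits Cfb, with 5 to 24 counts.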
